A study of Mus musculus with 13 samples.

Results

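Cultured hippocampal glia were compared with cultured cortical glia, both carrying a control lentivirus and both exposed to amyloid beta, with 1 RNA sequencing library per region. The comparison covered 13562 of the 24542 gene symbols of the culture table. These were the symbols that reached a level of 1 in either library on the scale of CPM, the count per 1000000 counts of the library total, after all lines of a symbol had been summed. Just inside that limit were Disc1 and Epha1 at 1.00 CPM, and just outside it Slit1 and Twist1 at 0.990 CPM. The study sequenced 13 mouse libraries, of which 7 came from hippocampal tissue and were not used here, and 6 from glia of postnatal day 1 pups of ICR mice, an outbred stock. Each culture group was 1 library, and the labels do not say how many pups, litters or sexes went into it. In the amyloid beta control pair the glia carried the control lentivirus and received amyloid beta, the peptide that forms the plaques of Alzheimer disease. In the N+F pair they received amyloid beta and a lentivirus for Nurr1 (gene symbol Nr4a2) and Foxa2, transcription factors of midbrain dopamine neurons. In the untreated pair they carried the control lentivirus and the treatment label is a dash. All 6 cultures therefore shared the lentiviral exposure. Every pair has 1 hippocampal and 1 cortical library, and no library belongs to more than 1 pair. The promoter driving each lentivirus, the form and dose of amyloid beta and the age of the cultures at harvest are not given in the sources used here.

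Hippocampus and neocortex arise from neighbouring fields of the dorsal telencephalon. The medial field lies beside the cortical hem, a source of Wnt and BMP signals, and gradients of transcription factors such as Emx2, Lhx2, Pax6 and Nr2f1 set the position of each progenitor. Astrocytes descend from the radial glia of the same fields, and in the adult brain they differ by region in transmitter uptake and in some transcription factors. Glial cultures of the newborn forebrain are rich in astrocytes, which divide and attach well. They can also hold microglia, oligodendrocyte lineage cells, multiciliated ependymal cells of the ventricle wall, and fibroblasts carried over with the meninges. The comparison asks which genes still differed by region of origin in such cultures.

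The hippocampal control library held 74717389 counts and the cortical control library 60721684 counts, so that 3 counts corresponded to 0.0402 and 0.0494 CPM. The ribosomal RNA precursor Rn45s took 0.0669 and 0.0455% of the counts. Astrocyte markers were high in both libraries. Gfap, the intermediate filament of astrocytes, had 2625 CPM in hippocampal and 1828 CPM in cortical control glia, and Aldh1l1, a folate enzyme widely used to mark astrocytes, had 490.4 CPM in hippocampal and 501 CPM in cortical control glia. None of the 12 astrocyte markers was at 0, and they summed to 8528 and 10153 CPM. The 12 neuron markers that were looked for summed to 418 and 462 CPM, 10 of them reached 1 CPM, and Snap25, a protein of synaptic vesicle release, had 0.509 CPM in hippocampal and 1.42 CPM in cortical control glia. None of 12 blood and leukocyte markers reached 1 CPM in either library. The control libraries thus showed the astrocyte-rich makeup that their labels imply.

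The other pairs stood apart from the control pair in their makeup. In the hippocampal and cortical untreated libraries neuron markers summed to 6975 and 7896 CPM and oligodendrocyte markers to 9704 and 8138 CPM, which goes against the label of cultured glia. The 12 astrocyte markers summed to 7424 and 8950 CPM there, so this sum alone does not tell these libraries from the control pair. Gfap was lower in them than in the control pair, at 448 and 291 CPM. The Y-linked genes Ddx3y, Eif2s3y, Kdm5d and Uty were at 0 in both untreated libraries, while Ddx3y had 32.2 and 25.2 CPM in the hippocampal and cortical control libraries. The cortical N+F library stood apart by its connective tissue genes, with 8889.5 CPM over the 15 listed meningeal fibroblast markers, against 555 CPM in the hippocampal N+F library and 492 and 329 CPM in the control libraries. Scaling mattered for the N+F pair too. Its median log2 ratio over 14158 genes was 0.33 with CPM of the library total and 0.04 with TMM scaling, so N+F ratios are read beside 0.33, whereas the control pair had a median of 0.01 with either. Results of these pairs are therefore given beside those of the control pair and not as its replicates. With 1 library per region, no difference within a pair has a replicate error, and intervals on ratios cover counting error only.

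Hippocampal and cortical control glia were alike in most transcripts. Of the 13562 genes, 12708 (93.7%) differed by less than 2-fold in CPM + 1, and the median log2 ratio of hippocampal over cortical was 0.01. At least 2-fold higher in hippocampal glia were 565 genes (4.17%), and at least 2-fold lower were 289 genes (2.13%), together 6.3%. A difference of at least 4-fold was found for 50 genes in the higher and 15 genes in the lower direction. The plot of ratio against level shows that called genes were found over most of the range of expression, and most densely at low levels.

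**Figure D1:**
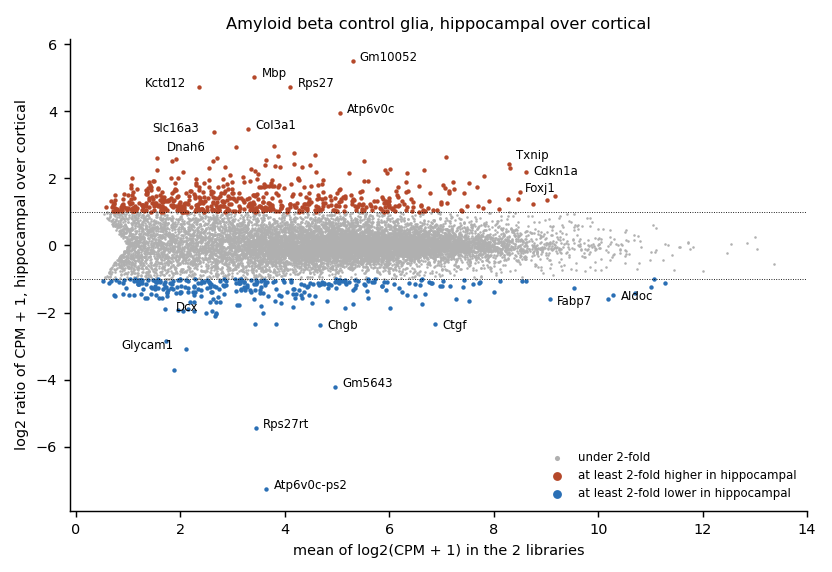
Each point is 1 of 13562 genes, with the mean of log2(CPM + 1) over the 2 amyloid beta control libraries on the x axis and the log2 ratio of CPM + 1, hippocampal over cortical, on the y axis. Dotted lines mark 2-fold, past which lie 565 genes that were higher (red) and 289 that were lower (blue) in hippocampal glia.

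Several of the most extreme ratios belonged to genes that share sequence with a copy. In the control pair the differences were under 2-fold when the copies were summed. Rps27, a ribosomal protein gene, had 87.4 CPM in hippocampal and 2.36 CPM in cortical control glia, while its copy Rps27rt had 0.642 CPM in hippocampal and 70.98 CPM in cortical control glia. Summed, they had 88.0 and 73.3 CPM. Atp6v0c, which encodes the membrane ring subunit of the proton pump of lysosomes, had 129.8 CPM in hippocampal and 7.41 CPM in cortical control glia, and the pseudogene Atp6v0c-ps2 had 0.0134 CPM in hippocampal and 154 CPM in cortical control glia, with a sum of 130 and 162 CPM. The split of the reads followed region in the N+F pair too. There Atp6v0c-ps2 had 0.0165 and 131 CPM in hippocampal and cortical glia, and Rps27rt had 0.926 and 251 CPM. Summed in the N+F pair, Rps27 and Rps27rt had 105 and 266 CPM, a log2 ratio of -1.34 and so past 2-fold. Atp6v0c and its pseudogene summed to 126 and 151 CPM there. In the untreated pair Rps27rt had 1.39 and 104.5 CPM in hippocampal and cortical glia, whereas Atp6v0c-ps2 was hardly counted in either library (0.0148 and 0.0383 CPM). In the control pair, reads were also split between Scn2a (-2.84), a sodium channel gene, and its older symbol Scn2a1 (2.56). Together they had 8.47 and 8.42 CPM there. In the N+F pair both of these symbols were higher in hippocampal glia, and their sum had a log2 ratio of 1.43. The histone genes Hist2h2aa1 and Hist2h2aa2 summed to 22.9 and 28.03 CPM, although Hist2h2aa2 alone had a log2 ratio of -3.72. Apoo and Apoo-ps summed to 47.0 and 43.6 CPM. Of unclear copy status were the predicted genes Gm10052 (5.50) and Gm5643 (-4.23) and the readthrough symbol Rnf8-cmtr1 (2.97). These symbols remain in the counts of called genes above.

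Some genes were counted in 1 library and absent from the other. Kctd12, an auxiliary subunit of GABA-B receptors, had 25.3 CPM in hippocampal control glia from 1888 counts and 0 counts in cortical control glia, which makes it at least 511-fold higher. It was counted in all 4 other culture libraries, with 64.8 and 37.5 CPM in hippocampal and cortical N+F glia and 174 and 62.6 CPM in the untreated pair, so the cortical control library was the 1 in 6 with 0 counts. The table gives this gene 1 line, and a 0 in it cannot be told apart from a count that is missing for that library, so the bound holds only if the 0 is a measured one. Other genes at 0 in cortical control glia were low in hippocampal control glia, with Mobp, a myelin protein, at least 36.8-fold and Wnt11, a secreted Wnt ligand, at least 24.9-fold higher. In the other direction Evi2a and Evi2b, small genes within an intron of Nf1, were at 0 in hippocampal control glia and at least 26.7- and 44.3-fold lower there, and the zinc finger gene Zfp965 at least 45.9-fold lower. Without known use of strand, reads of Evi2a and Evi2b cannot be told apart from those of Nf1.

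Genes of motile cilia were on balance higher in hippocampal than in cortical glia in all 3 pairs. Motile cilia are built on an axoneme of microtubule doublets with dynein arms, radial spokes and regulatory complexes, and in the forebrain they are carried by ependymal cells, which Foxj1 specifies. Of 71 symbols with the name prefixes of axonemal dyneins, their assembly factors, radial spokes, tektins and cilia-associated proteins, 54 reached 1 CPM in the control pair. At least 2-fold higher in hippocampal glia were 22 of them (40.7%, where 4.17% of all genes were) and 0 were lower, 49 had a positive ratio, and their median log2 ratio was 0.82 against 0.01 over all genes. The prefixes were chosen after the values of some of these genes had been seen. A shorter list of 12 ependymal markers had 11 members above 1 CPM, all with a positive ratio, 8 of them at least 2-fold higher, with a median of 1.46.

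Foxj1, the master regulator of the motile cilium program, had 571 CPM in hippocampal and 218 CPM in cortical control glia, a ratio of 2.62 with a 95% counting interval of 2.57 to 2.67. In hippocampal and cortical N+F glia Foxj1 had 308 and 227 CPM, and in untreated glia 20.2 and 7.34 CPM. Thus, by CPM of the library total, the hippocampal library was the higher one in each pair. Foxj1 was, however, far lower in both untreated libraries than in the control pair. Its log2 ratio in the N+F pair, 0.44, was under 2-fold and near the median of 0.33 over all genes there. Tppp3, a tubulin-binding protein abundant in ependymal cells, had 242 CPM in hippocampal and 73.4 CPM in cortical control glia, but 152 and 168 CPM in the N+F pair, where the order was turned. Among the motor proteins of the axoneme, Dnah6, an inner arm dynein heavy chain, had 15.2 CPM in hippocampal and 1.65 CPM in cortical control glia, and it was also higher in hippocampal glia in the N+F pair (16.7 and 4.24 CPM) and the untreated pair (9.87 and 2.395 CPM). Dnah11, an outer arm heavy chain, had 9.69 CPM in hippocampal and 2.22 CPM in cortical control glia, and Dnah2 a log2 ratio of 1.48. Rsph4a, a protein of the radial spoke head, had 20.9 CPM in hippocampal and 4.61 CPM in cortical control glia and kept its direction in the N+F pair (15.4 and 9.58 CPM) and in untreated glia (6.82 and 1.78 CPM). Among structural proteins of the doublets, Tekt1 had 10.2 CPM in hippocampal and 3.06 CPM in cortical control glia and Tekt2 a log2 ratio of 1.598. The ciliary adenylate kinase Ak7 had 3.24 CPM in hippocampal and 0.0494 CPM in cortical control glia, and the cortical value rests on 3 counts. Lowest of the 54 was Spag5 (-0.78), a protein of the mitotic spindle that shares the prefix but not the role.

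Across the other pairs the cilium genes kept a positive balance. In the N+F pair, where all genes had a median log2 ratio of 0.33, 51 of the 54 cilium genes had a positive ratio, 14 were at least 2-fold higher and 0 lower, with a median of 0.76. In the untreated pair 39 were positive, 19 were at least 2-fold higher and 1 lower, with a median of 0.53. Of all genes, 17.3% were at least 2-fold higher and 7.06% lower in the N+F pair (24.4% together), and 3.17% were higher and 2.3% lower in the untreated pair (5.47% together), so that the cilium count of the N+F pair was nearer to its background. In all 3 pairs 15 genes were at least 2-fold higher in hippocampal glia. Of these, Ccdc40, Cfap44, Dnah6, Gas2l2, Lrrc23, Lrriq1, Ttc21a and Ubxn10 have known or presumed parts in cilia. Apoo-ps and Rps27 belong to the split copies above, and the others were Cd109, Lrp2, Ppl, Tjp3 and Vit. These genes were named after their values had been seen. In bulk RNA, fewer cells of a type and less of a transcript per cell cannot be told apart, and ependymal markers as a whole summed to 975 CPM in hippocampal and 381 CPM in cortical control glia. Choroid plexus markers, the other ventricular epithelium, summed to 15.6 and 15.6 CPM over all 14 listed, of which 5 reached 1 CPM in the control pair. These 14 summed to 5898 CPM in the hippocampal untreated and 896 CPM in the cortical untreated library, the 5 were all at least 2-fold higher and their median log2 ratio was 2.92, so that choroid plexus, itself a multiciliated tissue, moved with the cilium genes there. In the N+F pair the 14 summed to 474 and 469 CPM. The part of choroid plexus cells in the cilium values of the untreated pair was not tested.

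**Figure D2:**
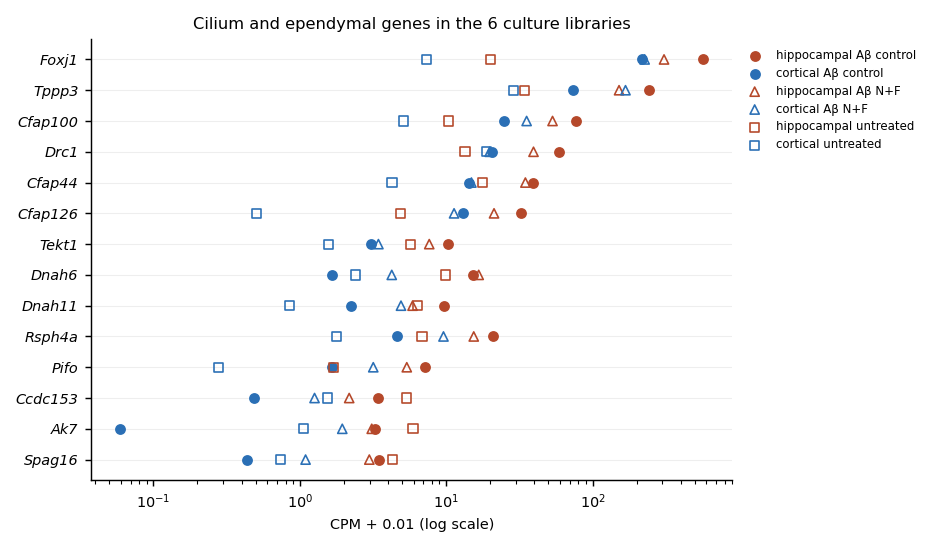
Levels of 14 cilium and ependymal genes on a log axis of CPM + 0.01 in the 6 culture libraries, 1 library per symbol. Filled circles are the amyloid beta control pair, in which hippocampal glia (red) lay above cortical glia (blue) for all 14 genes, as with Foxj1 at 571 against 218 CPM.

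Promoter sequence was examined for the letters bound by the regulatory factor X (RFX) family, which works with Foxj1 at cilium genes. The motif, known as the X-box, was searched on both strands in the 250 bases before each RefSeq gene start (GRCm38.p6). In its strict palindromic form, which is GTTNCC, 2 bases of any kind and GGNAAC, it was found in 0 of the 47 cilium genes with a promoter entry and in 0.444% of all 27025 promoters. In a looser form, which is GTTNCC, 5 bases of any kind and AAC and takes in the strict one, it was found in 4 of the 47 (8.51%), namely Cfap44, Cfap45, Dnaaf2 and Spag16, against 1.32% of all promoters and 1.74% of those of covered genes. Among genes at least 2-fold higher and lower in hippocampal glia, 3.35% of 418 and 0.455% of 220 promoters held it. These are matches of letters and not shown binding sites. The promoters of 3 of these genes are printed 5′ to 3′ on the gene's strand with the loose X-box in capitals, because all 3 genes were at least 2-fold higher in hippocampal control glia. Cfap44 (chr16:44394549-44394798, plus strand) had 38.99 and 14.2 CPM in hippocampal and cortical control glia, Cfap45 (chr1:172520880-172521129, plus strand) had 14.3 and 3.11 CPM, and Spag16 (chr1:69826720-69826969, plus strand) had 3.45 and 0.428 CPM.
Cfap44: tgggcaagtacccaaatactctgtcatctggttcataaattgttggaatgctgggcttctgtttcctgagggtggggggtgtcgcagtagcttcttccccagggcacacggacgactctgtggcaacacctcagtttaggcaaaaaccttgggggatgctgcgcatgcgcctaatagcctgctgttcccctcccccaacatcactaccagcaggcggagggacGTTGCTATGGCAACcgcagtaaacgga
Cfap45: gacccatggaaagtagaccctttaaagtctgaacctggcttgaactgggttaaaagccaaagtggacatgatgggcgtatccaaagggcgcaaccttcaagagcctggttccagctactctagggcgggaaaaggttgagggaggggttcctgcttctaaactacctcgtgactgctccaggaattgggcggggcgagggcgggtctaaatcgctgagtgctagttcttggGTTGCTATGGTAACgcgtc
Spag16: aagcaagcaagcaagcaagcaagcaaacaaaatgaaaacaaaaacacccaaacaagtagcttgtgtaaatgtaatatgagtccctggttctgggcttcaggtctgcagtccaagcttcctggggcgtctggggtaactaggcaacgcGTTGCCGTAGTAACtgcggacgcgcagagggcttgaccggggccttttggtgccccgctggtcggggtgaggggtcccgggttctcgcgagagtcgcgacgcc

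Genes induced by low oxygen were higher in hippocampal than in cortical control glia. When oxygen is scarce, hypoxia-inducible factor (HIF) binds a short element in promoters and enhancers and raises glycolytic enzymes, lactate export, pH control and vascular growth factors. All 30 measured hypoxia-induced genes had a positive log2 ratio, 15 (50%) were at least 2-fold higher and 0 lower, and the median was 0.95. This list was drawn up after some of its values had been seen. Slc16a3, the lactate exporter MCT4, had 19.2 CPM in hippocampal and 0.939 CPM in cortical control glia, a ratio of 20.5 (95% counting interval 15.7 to 27.2). Car9, a carbonic anhydrase on the cell surface, had 7.58 CPM in hippocampal and 0.494 CPM in cortical control glia. The vasoactive peptide gene Adm had 131 CPM in hippocampal and 28.3 CPM in cortical control glia, and the growth factor Vegfa had 213 CPM in hippocampal and 87.9 CPM in cortical control glia. Ddit4, an inhibitor of mTOR signalling, had 174 CPM in hippocampal and 49.9 CPM in cortical control glia, Ero1l, an oxidase of the endoplasmic reticulum, had 122 CPM in hippocampal and 39.3 CPM in cortical control glia, and Loxl2, a collagen crosslinking enzyme, had 88.4 CPM in hippocampal and 22.4 CPM in cortical control glia.

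The position of the libraries differed for these genes once the N+F pair was added. Slc16a3 had 30.3 and 44.3 CPM in hippocampal and cortical N+F glia, Car9 11.6 and 18.2 CPM and Adm 74.4 and 224 CPM, so that the cortical control library was the lowest of the 4 amyloid beta libraries for each of the 3 genes and the cortical N+F library the highest. Over the list, 2 genes were at least 2-fold higher and 6 lower in the N+F pair, with a median of -0.05 beside 0.33 over all genes, and in the untreated pair 0 were higher and 0 lower, with a median of -0.06. The difference between the pairs was not tested. Glycolysis genes went with the hypoxia genes in the control pair, but the lists are not separate observations. At least Slc16a3 and Slc2a1 stand in both, and the hypoxia list also holds the glycolytic enzyme genes Ldha and Pgk1. Of these 20 glycolysis genes 18 had a positive ratio, with a median of 0.52. At least 2-fold higher were Slc16a3, the neuronal enolase Eno2 (1.37), the hexokinase Hk2 (1.23) and the glucose transporter Slc2a1 (1.02), and Aldoc (-1.47), the aldolase of astrocytes, was at least 2-fold lower. Genes of oxidative phosphorylation stayed within 2-fold, all 30 of them, with a median of -0.04 and a range that ran only to -0.30 for Cox6c and 0.26 for Ndufb3 at its ends.

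The core letters of the HIF element, ACGTGC, were searched in the same 250-base windows on both strands. They were found in 13 of the 24 hypoxia-list promoters that could be matched (54.2%), in 5.63% of all promoters and in 7.93% of those of the 10401 covered genes with an entry. The share was 9.33% for genes at least 2-fold higher and 5.91% for genes at least 2-fold lower in hippocampal control glia. Hypoxia lists are themselves built on genes known to respond to HIF, so a high share there is no independent finding. The promoters of 3 genes with large ratios that hold the element are shown 5′ to 3′ on the gene's strand, with ACGTGC or its complement GCACGT in capitals. They are those of Slc16a3 (chr11:120948817-120949066, plus strand), which has the element at a pair of places, Car9 (chr4:43506776-43507025, plus strand) and Ddit4 (chr10:59951771-59952020, minus strand).
Slc16a3: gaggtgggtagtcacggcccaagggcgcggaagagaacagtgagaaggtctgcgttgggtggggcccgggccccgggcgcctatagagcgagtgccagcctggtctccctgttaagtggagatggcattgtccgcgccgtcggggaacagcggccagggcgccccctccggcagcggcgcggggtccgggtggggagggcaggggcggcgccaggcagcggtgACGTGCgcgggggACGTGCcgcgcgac
Car9: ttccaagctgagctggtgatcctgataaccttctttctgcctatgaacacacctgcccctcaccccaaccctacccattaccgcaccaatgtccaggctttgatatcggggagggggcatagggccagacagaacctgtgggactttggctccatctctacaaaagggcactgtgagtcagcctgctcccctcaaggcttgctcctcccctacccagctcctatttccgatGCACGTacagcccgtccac
Ddit4: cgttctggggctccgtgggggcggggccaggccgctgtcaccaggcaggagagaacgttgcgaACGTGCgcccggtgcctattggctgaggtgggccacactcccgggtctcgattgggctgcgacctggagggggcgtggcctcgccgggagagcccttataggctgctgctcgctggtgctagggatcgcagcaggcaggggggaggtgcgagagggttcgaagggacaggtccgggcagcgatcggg

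Targets of p53, the transcription factor that arrests damaged cells, were also higher in hippocampal control glia. Of 23 measured targets 13 (56.5%) were at least 2-fold higher and 0 lower, 21 had a positive ratio, and the median was 1.10. The p53 list shares at least Ddit4 with the hypoxia list and Btg2 with the immediate early genes. These lists are thus not separate observations. Cdkn1a, the cell cycle inhibitor p21, had 843 CPM in hippocampal and 183 CPM in cortical control glia, with a 95% counting interval on the ratio of 4.52 to 4.702. Gdf15, a secreted stress cytokine, had 12.1 CPM in hippocampal and 1.65 CPM in cortical control glia, Phlda3, an inhibitor of Akt, had 374 CPM in hippocampal and 110.4 CPM in cortical control glia, and Mdm2, the ubiquitin ligase that degrades p53, had 267 CPM in hippocampal and 118 CPM in cortical control glia. In the N+F pair the order was turned for Cdkn1a (595 and 1347 CPM) and Gdf15 (8.104 and 54.7 CPM), and the list had 1 gene higher, 3 lower and a median of -0.19. Proliferation genes were mostly a little higher as well, with 28 of 33 positive ratios and a median of 0.41, but with Rrm2 (1.04), a subunit of ribonucleotide reductase, as the 1 gene past 2-fold. Mki67, a marker of dividing cells, had 9.05 CPM in hippocampal and 5.68 CPM in cortical control glia.

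Targets of Nrf2, the factor that answers oxidative and electrophile stress, showed the same direction. Of 22 measured targets 9 (40.9%) were at least 2-fold higher and 0 lower in hippocampal control glia, 21 had a positive ratio, and the median was 0.62. Slc7a11, the cystine transporter that feeds glutathione synthesis, had 131 CPM in hippocampal and 26.8 CPM in cortical control glia. Srxn1, which repairs peroxiredoxins, had 463 CPM in hippocampal and 109 CPM in cortical control glia, Txnrd1, thioredoxin reductase, had 821 CPM in hippocampal and 323 CPM in cortical control glia, and Hmox1, heme oxygenase, had 663 CPM in hippocampal and 279 CPM in cortical control glia. Slc7a11 was higher in hippocampal glia in the N+F pair too (56.1 and 27.7 CPM), whereas Hmox1 was not (280.5 and 467 CPM). The list's median was 0.22 in the N+F pair, below the 0.33 of all genes there, and 0.12 in the untreated pair. The antioxidant response letters, which are TGAC, 3 bases of any kind and GC, were searched the same way and found in 4 of 18 matched Nrf2 target promoters (22.2%), in 11.5% of all promoters and in 14.0% of those of covered genes. The share was 16.99% for genes at least 2-fold higher and 13.2% for genes at least 2-fold lower. Among unfolded protein response genes 18 of 22 had a negative ratio, with a median of -0.26, and Atf4, a translational stress factor, was at least 2-fold lower (52.4 and 150.4 CPM in hippocampal and cortical glia). Ero1l, named above, was the 1 member at least 2-fold higher. The p53 and Nrf2 lists were also chosen after values had been seen.

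Immediate early genes, which follow cell activity and stress, leaned higher in hippocampal control glia, and reactive astrocyte genes held more higher than lower members around a median near 0. Of 36 reactive astrocyte genes 7 (19.4%) were at least 2-fold higher and 1 lower, but the median was 0.05. The higher ones included Ggta1 (339 CPM in hippocampal and 53.8 CPM in cortical control glia), which makes the alpha-galactose epitope, Emp1 (60.3 and 8.42 CPM), a membrane protein, Tgm1 (2.26), a transglutaminase, and Ptx3 (1.604), a pentraxin. Clcf1 (-1.01), a cytokine of the ciliary neurotrophic factor family, was the 1 lower. Immediate early genes had 6 of 17 (35.3%) at least 2-fold higher, 0 lower and 12 with a positive ratio, with a median of 0.69 in the control pair and -0.26 in the N+F pair. Among them, Klf4 had a log2 ratio of 1.23, Egr1 1.22, Btg2 1.17 and Nr4a1 1.16, while Fos had 0.13 and Npas4, lowest of the list, -0.94.

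**Figure D3:**
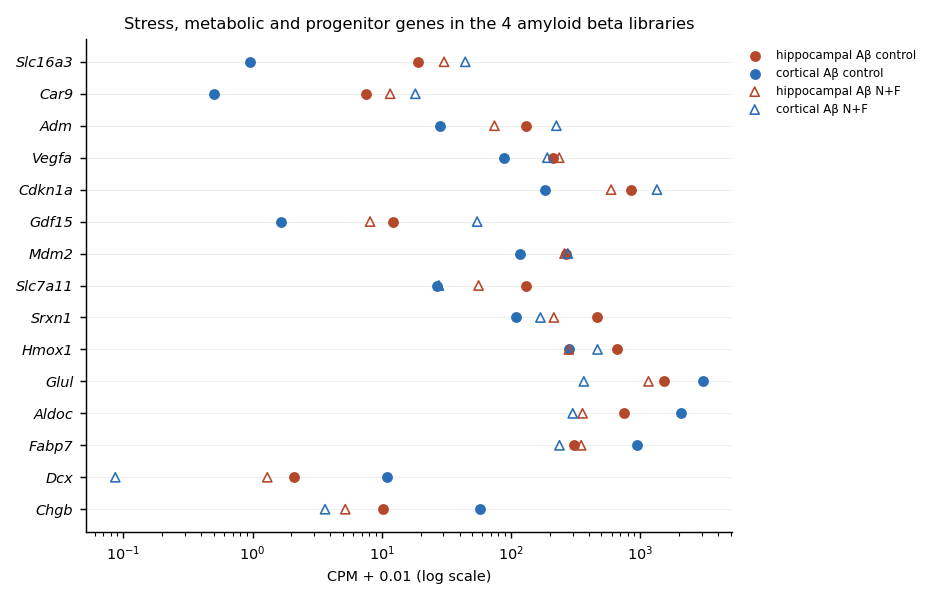
Levels of 15 stress, metabolic, astrocyte and progenitor genes on a log axis of CPM + 0.01 in the 4 amyloid beta libraries, 1 library per symbol. From Slc16a3 down to Hmox1 hippocampal control glia (filled red) lay above cortical control glia (filled blue), and from Glul down to Chgb the order was the opposite, while the N+F libraries (triangles) often did not follow either.

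Matrix and connective tissue genes were partly higher in hippocampal control glia. Of 61 measured matrix and collagen genes 14 (22.95%) were at least 2-fold higher and 5 lower, 44 had a positive ratio, and the median was 0.47. Fibrillar collagen genes were among the higher ones, with Col3a1 at 31.7 and 1.96 CPM, Col1a1 at 110.2 and 47.03 CPM and Col1a2 at 137 and 51.5 CPM in hippocampal and cortical control glia. Mmp2, a gelatinase, had 21.7 and 3.66 CPM, Fbln2, an elastic fibre protein, 45.8 and 5.95 CPM, and Col18a1, a basement membrane collagen, 153 and 40.5 CPM. Of 8 meningeal fibroblast markers that reached 1 CPM 5 were at least 2-fold higher, 4 of which (Col3a1, Col1a2, Col1a1 and Dcn) are matrix genes and so are counted in both lists. The fifth was Crabp2 (1.20), a retinoic acid binding protein of meningeal cells. Fibroblast transcription factor Foxc1 (-0.33) and Ogn (-0.14) did not go with them. The N+F pair had the opposite order by a wide margin, with Col3a1 at 33.6 and 2033 CPM and Col1a1 at 111 and 2894 CPM in hippocampal and cortical glia, and 31 of the 61 genes at least 2-fold lower. The matrix genes that were lower in hippocampal control glia included Hapln1 (-1.59), a link protein of the perineuronal matrix, and Ncan (1343 and 3179 CPM), a brain proteoglycan, beside Timp4 (-1.55), Cemip (-1.22) and Col5a3 (-1.001). The part of meningeal cells in these values was not tested.

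Markers of mature oligodendrocytes were low in both control libraries and higher in the hippocampal one. Of 8 measured markers 4 were at least 2-fold higher and 0 lower, and the 10 listed markers summed to 306 and 181 CPM. Mbp, the myelin basic protein gene, had the largest log2 ratio of all genes outside the split copies and predicted genes, 5.02, with 59.7 CPM in hippocampal and 0.873 CPM in cortical control glia. Mag, a myelin glycoprotein, had 6.29 and 0.198 CPM, and Cldn11, the tight junction protein of myelin, 5.45 and 0.346 CPM. The order was turned in the N+F pair, with Mbp at 31.1 and 179.5 CPM. Precursor markers did not share the direction, as Cspg4 (1.84) was higher, Olig2 (-1.26) and Olig1 (-0.89) were lower and Pdgfra was level (0.00). Mural cell markers had 2 of 7 at least 2-fold higher, Cspg4 again and Acta2 (1.46), smooth muscle actin. Endothelial markers had 0 of 5 past 2-fold in either direction.

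In the control pair most genes that pattern the forebrain differed by less than 2-fold. Those of the hippocampal and medial pallium list showed no common lean there. Of 24 genes of hippocampal and medial pallium patterning 16 reached 1 CPM, 2 were at least 2-fold higher and 1 lower in hippocampal control glia, and the median was -0.05. In the untreated pair 12 of the 16 had a positive ratio, 4 were at least 2-fold higher and 0 lower, with a median of 0.36. Of all genes there, 3.17% were higher and 2.3% lower. In the N+F pair 10 had a positive ratio, 4 were higher and 4 lower, with a median of 0.51 beside 0.33 over all genes. Of all genes in that pair, 17.3% were higher and 7.06% lower. Zbtb20, a zinc finger repressor needed for hippocampal field CA1, had 36.6 CPM in hippocampal and 8.58 CPM in cortical control glia, and Zic1, a medial midline factor, had 3.81 CPM in hippocampal and 0.527 CPM in cortical control glia. Neither was higher in hippocampal glia of the N+F pair, with Zbtb20 at 46.5 and 128 CPM and Zic1 at 4.598 and 102 CPM. In the untreated pair both were, with 8.08 and 2.95 CPM and 18.7 and 13.2 CPM. Wnt5a, a ligand of the cortical hem, had 58.4 and 29.1 CPM, a ratio of 2.01. On the scale of CPM + 1 it lay just under 2-fold, with a log2 ratio of 0.98. It was higher in hippocampal glia in the N+F pair (67.4 and 37.2 CPM) and the untreated pair (12.9 and 7.205 CPM) too. Prox1, the factor that specifies dentate granule neurons, had 7.33 and 4.58 CPM, 21.9 and 13.8 CPM in the N+F pair and 36.8 and 9.56 CPM in the untreated pair, the hippocampal library being the higher each time. The untreated libraries hold far more neuron marker RNA, as given above. Its part in the Prox1 values and in the list's untreated median was not tested. Further members ranged around 0, with log2 ratios of -0.91 for Axin2, -0.48 for Dmrta2, -0.24 for Lhx2, -0.21 for Emx2, -0.13 for Zic2, -0.08 for Nfib, -0.05 for Nrp2, -0.04 for Dach1, 0.01 for Gli3, 0.07 for Nr2f2 and 0.09 for Zic5. Lhx2, the selector of cortical over hem fate, was well expressed in both, with 84.9 CPM in hippocampal and 101 CPM in cortical control glia.

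Neocortical patterning genes leaned lower in hippocampal than in cortical glia in the control pair. Of 24 listed genes 15 reached 1 CPM, 13 of which had a negative ratio, with 2 at least 2-fold lower, 0 higher and a median of -0.55. Bcl11a was among the lower ones, with 0.656 CPM in hippocampal and 3.49 CPM in cortical control glia. Nr2f1, which sets the caudal to rostral axis, had 72.5 and 124 CPM and Otx1 28.6 and 47.4 CPM in hippocampal and cortical control glia, both short of 2-fold. Further members had log2 ratios of -0.82 for Sp8, -0.76 for Etv1, -0.55 for Cux2, -0.32 for Pax6, -0.28 for Cux1, -0.21 for Sp9, -0.09 for Fezf2, -0.02 for Lmo4, 0.02 for Tcf7l2 and 0.66 for Bcl11b. This lean was not shared by the N+F pair, in which 6 of the 15 genes were at least 2-fold higher in hippocampal glia, 0 lower, and the median was 0.69 beside 0.33 over all genes. There Nr2f1 had 70.2 and 45.7 CPM in hippocampal and cortical glia. The untreated pair had a median of -0.04.

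Of the subpallial genes, which mark the ventral telencephalon, 10 of 20 reached 1 CPM, 2 were lower, among them Olig2 (-1.26), and 0 higher. Further members were Rarb (-0.45), Meis1 (-0.39), Meis2 (-0.21), Ebf1 (-0.14), Dlx1 (-0.05), Dlx2 (0.03), Foxp1 (0.11) and Six3 (0.46). Of diencephalic, midbrain and hindbrain factors 2 of 30 reached 1 CPM in the control pair, Pax2 (-0.73) and Irx3 (0.07). The plot of patterning genes shows that for Nr2f1 and Otx1 the cortical control library was the highest of the 4 amyloid beta libraries and the cortical N+F library the lowest.

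**Figure D4:**
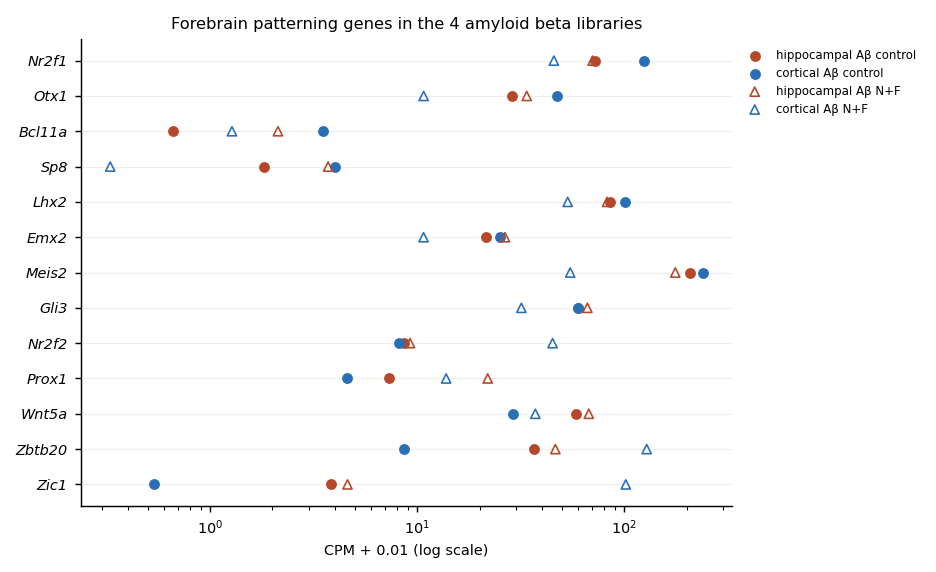
Levels of 13 forebrain patterning genes on a log axis of CPM + 0.01 in the 4 amyloid beta libraries, 1 library per symbol. In CPM + 1, hippocampal (filled red) and cortical (filled blue) control glia differed by at least 2-fold for 3 of the 13. Bcl11a was lower and Zbtb20 and Zic1 were higher in hippocampal glia.

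Most listed genes known to differ between astrocytes of adult hippocampus and cortex differed by less than 2-fold in the control pair. The list gives no direction for its members, so its median cannot show whether their adult differences were kept. Of 23 measured regional astrocyte genes 0 were at least 2-fold higher and 3 lower in hippocampal control glia, with a median of -0.08. The lower ones included Slc6a11 (2.41 and 6.44 CPM), a GABA transporter, and Dio2 (10.97 and 24.3 CPM), the deiodinase that activates thyroid hormone. Gfap, which is higher in hippocampal than in cortical astrocytes of the adult brain, had a log2 ratio of 0.52, short of 2-fold, and 1667 and 2957 CPM in the N+F pair. Positive ratios short of 2-fold were also seen for Itih3 (0.72), Lgr6 (0.62), Il33 (0.48), Sox9 (0.38), Crym (0.37), Nupr1 (0.32), Sparc (0.15), Chrdl1 (0.14), Tnc (0.06) and Mfge8 (0.01). Negative ones included those of Nnat (-0.96), Ogt (-0.62), Kcnk1 (-0.59), Lhx2, Fam107a (-0.20), Igfbp2 (-0.11), Id1 (-0.09) and Id3 (-0.08).

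Genes of astrocyte metabolism and transport had 3 of 39 members at least 2-fold higher, 5 lower and a median of -0.15. Among the lower ones, Fabp7, the fatty acid binding protein of radial glia and immature astrocytes, had 309 CPM in hippocampal and 939.8 CPM in cortical control glia, and Aldoc had 753 CPM in hippocampal and 2081 CPM in cortical control glia. Glul, glutamine synthetase, had 1518 CPM in hippocampal and 3060.0 CPM in cortical control glia, with a 95% counting interval on the ratio of 0.492 to 0.4996. Grm5 (-1.10), a glutamate receptor, and Slc6a11 completed the 5. Slc7a11, Gbe1 (1.19), the glycogen branching enzyme, and Slc2a1 were the higher ones. The order of Glul was turned in the N+F pair (1158 and 366 CPM), and that of Fabp7 (349 and 237 CPM) as well. Aldoc (358 and 300.5 CPM) had a ratio there below that of the median gene. The cortical control library was the highest of the 4 amyloid beta libraries for all 3 genes. The glutamate transporter genes Slc1a2 (-0.74) and Slc1a3 (-0.25) and the water channel gene Aqp4 (-0.15) stayed within 2-fold.

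Progenitor and neuroendocrine transcripts were lower in hippocampal control glia. Of 15 measured genes of neural progenitor transcription, a list chosen after values had been seen, 6 (40.0%) were at least 2-fold lower, 0 higher, 11 had a negative ratio, and the median was -0.89. Dcx, the microtubule protein of young neurons, had 2.09 CPM in hippocampal and 11.001 CPM in cortical control glia, Olig2 25.1 and 61.5 CPM, Sox11 10.4 and 26.98 CPM and Insm1 0.321 and 1.71 CPM. In the N+F pair Olig2 had 33.95 and 12.5 CPM in hippocampal and cortical glia, and the list's median was 0.72, so the direction was opposite there. Among 8 measured granins and neuropeptides, also chosen after values had been seen, 3 were lower and 1, the enkephalin gene Penk (1.12), higher. Chgb, a protein of dense core granules, had 10.2 CPM in hippocampal and 57.3 CPM in cortical control glia, Chga 1.43 CPM in hippocampal and 8.37 CPM in cortical control glia, and Npvf, a neuropeptide precursor, 17.7 CPM in hippocampal and 66.5 CPM in cortical control glia. Of 12 neural stem and radial glia markers 2 were at least 2-fold lower, among them Fabp7, 0 were higher and 7 had a negative ratio, with a median of -0.19, while Nes (0.32) and Sox2 (0.30) had positive ratios short of 2-fold. Further, the neuron list had 2 of 10 lower, Dcx and Tubb3 (-1.003).

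Microglia markers were lower in hippocampal than in cortical control glia. Of 12 measured markers 10 had a negative ratio, 4 were at least 2-fold lower, 0 higher, and the median was -0.80. C1qa, a chain of the complement starter C1q, had 9.81 CPM in hippocampal and 28.5 CPM in cortical control glia, C1qb had 4.604 CPM in hippocampal and 13.2 CPM in cortical control glia, and Csf1r, the receptor microglia need to survive, had 4.74 CPM in hippocampal and 11.4 CPM in cortical control glia. Trem2, a lipid receptor of phagocytes, had 1.097 CPM in hippocampal and 3.47 CPM in cortical control glia. The markers summed to 93.6 and 147 CPM, and to 72.6 and 294 CPM in the N+F pair, where 9 of 12 were at least 2-fold lower in hippocampal glia, with a median of -2.04. Their sums in the untreated pair, 554 and 579 CPM, were level. Tmem119 (0.65) and Cx3cr1 (0.31), markers of resting microglia, had positive ratios.

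Complement, antigen presentation and interferon lists had negative medians in the control pair. Complement genes had 4 of 19 lower, 3 of them the C1q chains and the fourth Cfp (-1.31), properdin, and 0 higher, with C2 at 0.996 just short of 2-fold and a median of -0.38. Antigen presentation genes had 1 of 18 lower, Cd74 (1.28 and 7.49 CPM), the invariant chain, with a median of -0.37. Interferon-stimulated genes had 28 of 38 negative ratios and a median of -0.26, with Oas1a (-1.23), Oas2 (-1.23) and Ifi44 (-1.11) at least 2-fold lower and Gbp5 (1.06) at least 2-fold higher. Oas1a and Gbp5 lie in clusters of similar genes, so their reads may be shared. The list of cytokines and chemokines, which also holds enzymes, had 2 lower and 2 higher among 29. The lower ones were the chemokine genes Ccl5 (1.53 and 7.11 CPM) and Cxcl5 (-1.17), and the higher ones the enzyme genes Nos2 (1.49) and Ptgs2 (1.14). Cholesterol genes had 19 of 23 negative ratios and a median of -0.47, with 2 at least 2-fold lower, among them Insig1 (14.7 and 48.6 CPM), a brake on sterol synthesis. The summed microglia markers given above were lower in hippocampal control glia as well, but C1qa, C1qb and Itgam stand in both the microglia and the complement list, and the 20 listed complement genes summed to 6755 CPM in hippocampal and 6566 CPM in cortical control glia, which is the other order. The part of microglia in these values was not tested.

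Signalling families differed from list to list. In the control pair most had medians near 0, and the retinoic acid genes had a positive one. Wnt pathway genes had a median of 0.10, with Nkd2 (1.80), a Wnt antagonist, and Wnt11 (1.16) the 2 of 36 at least 2-fold higher and 0 lower. BMP and TGF-beta genes had a median of -0.06, with Bmp3 (1.79), Tgfbr3 (1.56) and Fst (1.36), the activin-binding follistatin, higher and the receptor Bmpr1b (-1.34) lower among 30. Notch, Shh and FGF genes had a median of -0.05, with the Notch ligand Jag2 (1.58) and the hedgehog receptor Ptch1 (1.02) higher and the FGF inhibitor Spry1 (2.03 and 12.1 CPM) lower among 28. The retinoic acid list had 2 genes higher, among them the binding protein Crabp2, and Aldh1a1 (-1.50), a synthesis enzyme, lower among 13, with a median of 0.49. In the N+F pair, where all genes had a median of 0.33, the retinoic acid median was -0.64, with 10 of 13 ratios negative. The Notch, Shh and FGF median was 0.81 there, with 25 of 28 ratios positive. Axon guidance and adhesion genes had 6 of 57 higher, led by Efna1 (2.23), Unc5b (1.57) and Efna3 (1.57), and 7 lower, led by Ntm (-1.81), Sema5a (-1.74) and Ephb1 (-1.70). Neurotrophic factor genes had 8 of 31 (25.8%) higher, among them Igf2 (1.72), Thbs2 (1.64), Nrg1 (1.40) and Vegfa, and Ptn (-1.08) lower, with a median of 0.14. The Wnt and BMP lists, the families of the cortical hem, thus had medians near 0 in the control pair.

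Beyond the lists, the genes of largest ratio included Hmga1 (36.2 and 4.81 CPM in hippocampal and cortical control glia), a chromatin protein of dividing cells. At the low end were Glycam1 (0.482 and 11.6 CPM), a mucin of lymph node vessels and milk, Cebpb (5.33 and 31.3 CPM), a factor of the acute phase response, and B3gat1 (3.77 and 23.1 CPM), which makes the HNK-1 glycan. Ctgf, a matrix protein gene and target of the Yap pathway, had 51.4 and 263 CPM, and Tmem100, a protein of endothelial BMP signalling, had 2.18 and 12.04 CPM. The ubiquitin ligase gene Trim67 had 2.21 and 11.97 CPM, and the heparan sulfate enzyme gene Ndst3 had 4.98 and 23.02 CPM. Of these genes, Ndst3 (8.63 and 0.332 CPM), Ctgf (611 and 344 CPM), Hmga1 (10.4 and 13.2 CPM) and Glycam1 (0.331 and 0.102 CPM) had the opposite order in hippocampal and cortical N+F glia, which for Ndst3 alone came to 2-fold on the scale of CPM + 1.

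Genes that differed in the control pair were in part turned in the N+F pair, and a minority differed the same way elsewhere. Of the 565 genes at least 2-fold higher in hippocampal control glia, 74 were so in the N+F pair (13.1% of these and 3.01% of the 2455 genes higher there), while 102 (18.1%) were at least 2-fold lower. Of all genes covered in the N+F pair 17.3% were higher and 7.06% lower, so the share in the same direction lay below that background and the share in the opposite direction above it. In the untreated pair 67 of the 565 were higher (11.9% of these and 14.6% of the 459 higher there) and 25 (4.42%) lower, beside 3.17% and 2.3% of all genes. Of the 289 genes lower in hippocampal control glia, 52 were lower in the N+F pair (18.0% of these and 5.21% of 999) and 78 (27.0%) were higher, both above the background of 7.06% and 17.3%. In the untreated pair 14 of the 289 were lower (4.84% of these and 4.19% of 334) and 10 higher, where 2.3% of all genes were lower. Across the 13562 genes, which are not independent replicates, Pearson's r of the control ratios was -0.134 with the N+F ratios and 0.115 with the untreated ratios. The libraries of a pair share no sample with those of another, but each pair may share a culture preparation with the others, which the labels do not give. The plot of gene lists by pair shows the motile cilium list above 0 in all 3 pairs and the hypoxia, p53, matrix and progenitor lists at medians of opposite sign in the control and N+F pairs.

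**Figure D5:**
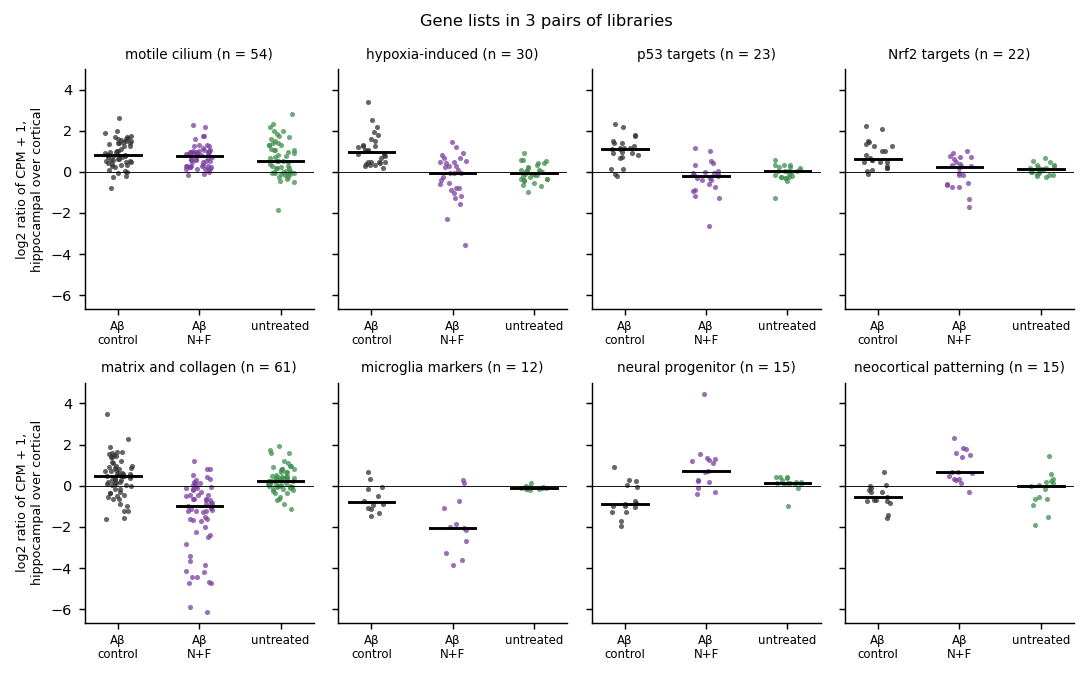
Log2 ratios of CPM + 1, hippocampal over cortical, for the genes of 8 lists in the amyloid beta control, N+F and untreated pairs, 1 point per gene and a bar at the median. Motile cilium medians were 0.82, 0.76 and 0.53, whereas those of hypoxia-induced genes were 0.95, -0.05 and -0.06.

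The cortical control library was more often the one at the edge. Among the 4 amyloid beta libraries it was the lowest for 513 (90.8%) of the 565 genes higher in hippocampal control glia, and the hippocampal control library was the highest for 217 (38.4%). Among the 289 lower genes the cortical control library was the highest for 220 (76.1%) and the hippocampal control library the lowest for 98 (33.9%). Over all 13562 genes the cortical control library was lowest for 27.7% and highest for 26.4%, and the hippocampal control library lowest for 11.5% and highest for 15.4%. The choice of genes already sets which of the control libraries is above the other, so these shares are a description.

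A test of region could be had only by taking other pairs as further observations, and the N+F pair, which shares the exposure to amyloid beta, was used. In edgeR's quasi-likelihood test of a region term over the 4 amyloid beta libraries, with N+F as a second term and 1 residual degree of freedom, 0 of 15600 genes were called higher (0%) and 2 lower (0.0128%) at a Benjamini-Hochberg adjusted p of 0.05. Both were members of split copies, Atp6v0c-ps2 (adjusted p = 0.000445) and Rps27rt (adjusted p = 0.0114). At an unadjusted p of 0.05, 321 genes passed. The biological coefficient of variation was 0.467, which here holds how far the regions differed in their response to N+F. DESeq2 with the same terms called 13 genes higher and 40 lower, with 638 genes at an unadjusted p of 0.05. Among the lower were the microglia markers C1qa (DESeq2 adjusted p = 0.00594), C1qb (0.0293) and Tyrobp (0.0293), whose log2 ratios in the edgeR fit were -2.74, -2.54 and -3.10. Among the higher were the cilium genes Dnah6 (DESeq2 adjusted p = 0.0334) and Cfap45 (0.0364), with log2 ratios of 2.42 and 2.30. The edgeR adjusted p was 0.9998 for each of these 5 genes. Neither tool can tell region from other differences between the cultures, since each region and condition was 1 library.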

How the data were processed

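The authors deposited raw counts per gene symbol, which were whole numbers with a different total in each library. Per the labels' protocols, libraries were made with a SMARTER mRNA kit out of 1.3 µg of Trizol-extracted total RNA. The submitters' processing notes list TopHat, HISAT2 and edgeR without roles or versions, and they name the human build hg19 although the symbols are mouse. The build behind the counts was taken as unknown, so the files' own coordinates were not used. No source used here says whether counting used strand. RefSeq GRCm38.p6 served for names and promoters. Of 36780 lines, 12238 repeated a symbol with other values, and lines were summed to 24542 symbols, of which 24430 matched a current or older RefSeq symbol. A read counted in several lines of a symbol counts more than once. Each column matched 1 sample title, 0 columns were unused and 0 lines lacked a name.

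Levels are CPM of the library total and are not divided by gene length. Ratios are log2 of hippocampal over cortical CPM + 1, which understates the change of low genes, and genes of at least 1 CPM in either library were kept. Called means at least 2-fold. Counting intervals at 95% are exact binomial intervals on the counts, computed in Python 3.11.15 with scipy 1.17.1, and a count of 0 was bounded at 3 counts per library. They cover counting error alone, since no source used here names molecular identifiers. Over genes with enough counts, the chi-square per gene between any 2 libraries was at least 166, so no library was a copy of another. The region term was fitted with edgeR 4.0.16 in R 4.3.3 after filterByExpr and TMM scaling, with Benjamini-Hochberg adjustment, and DESeq2 1.42.0 was an alternative. Any p-value of the region term is set against how far the regional ratio differed between conditions, which may be technical. It is not set against a spread between replicate cultures. Scripts were tested on simulated data.

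Genes named were the 12 highest and 12 lowest ratios after leaving out provisional, small RNA and pseudogene symbols, all measured members of the patterning, regional astrocyte and sex-linked lists, and the members of largest ratio in the other lists. Some of these genes are not reported here. Other names, and those of 6 added lists (motile cilium by symbol, hypoxia, p53, Nrf2, progenitor, granins), were chosen after values were seen. The comparison, its members and all lists were chosen with earlier results of these data known. Hippocampal tissue libraries were not used here.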

Additional observations from a re-analysis of the deposited data

Results flagged for a closer look

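For 41 named genes the hippocampal over cortical ratio was at least 2-fold in 1 direction in the amyloid beta control pair and at least 2-fold in the other direction in the N+F pair. With 1 library per group the difference between the pairs was not tested for any of them. The values below are log2 ratios in the N+F pair, where the median of all genes was 0.33.

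The first set was higher in hippocampal control glia and lower in hippocampal N+F glia. It included connective tissue genes, namely Col3a1 (-5.88), Col1a1 (-4.70), Col1a2 (-4.44), Col18a1 (-1.17), Dcn (-6.12), Fbln2 (-4.48), Mmp2 (-4.75), Thbs2 (-4.70), Loxl2 (-1.27) and Crabp2 (-2.84). Beside them the 15 listed meningeal fibroblast markers summed to 555 CPM in hippocampal and 8889.5 CPM in cortical N+F glia, and their part in these values was not tested. Secreted and signalling genes of the set were Igf2 (-6.24), Nkd2 (-4.05), Wnt11 (-2.47), Penk (-3.15), Tgfbr3 (-2.04), Efna3 (-1.84) and Adm (-1.58). Myelin genes were Mbp (-2.49), Mag (-2.57), Cldn11 (-3.18) and Mobp (-1.41), and the pericyte and precursor gene Cspg4 had -1.50. Stress and reactive genes were Cdkn1a (-1.18), Gdf15 (-2.61), Nr4a1 (-1.31), Emp1 (-2.52), Ptx3 (-1.78) and Ptgs2 (-3.21). The patterning genes Zbtb20 (-1.45) and Zic1 (-4.20) had this order too.

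A second set was lower in hippocampal control glia and higher in hippocampal N+F glia. Its progenitor and neuronal genes were Dcx (1.09), Olig2 (1.37), Insm1 (1.54) and Npvf (3.05). Also in it were Glul (1.66), Aldh1a1 (1.77), Timp4 (1.22), Ephb1 (1.19), Clcf1 (1.6) and Ndst3 (2.85). Scn2a (2.11) belongs to a pair of symbols of 1 gene, and its ratio in the control pair was absent once they were summed.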

How the results depend on the processing

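No paired analysis was possible because each culture group had 1 library and the labels give these libraries no replicate numbers. In the amyloid beta control pair, 381 to 723 genes were at least 2-fold higher and 182 to 400 lower under every alternative other than a pseudocount of 5 CPM, which gave 234 and 107. The lowest of these lower counts, 182, came from symbols with 1 line, which also tests fewer genes. In the N+F pair the counts higher and lower were 1347 and 564 with a pseudocount of 5 CPM, 1631 and 664 with symbols of 1 line, 1490 and 1459 with TMM scaling and 1289 and 1672 with DESeq2 size factors, so that the share of higher genes among called ones was 71.1%, 50.5% and 43.5% with library totals, TMM and DESeq2 scaling. In the untreated pair a pseudocount of 5 CPM gave 213 higher and 190 lower, and symbols of 1 line gave 197 lower. The region term gave 13 higher and 40 lower in DESeq2 and 0 and 0 in edgeR over all 6 libraries (365 genes at an unadjusted p under 0.05). Leaving out 1 library of the 6 at a time gave 0 higher and 0 to 2 lower, and 346 to 818 genes at an unadjusted p under 0.05, with 802 without the hippocampal and 818 without the cortical N+F library. Of 232 named genes, Atp6v0c (-0.316) and Scn2a (0.009) changed sign when symbols and copies of 1 gene were merged, an alternative chosen after seeing the data. No other named gene past 2-fold changed sign under any alternative. Of 43 list medians TMM and DESeq2 scaling moved 0 by more than 0.1, a pseudocount of 5 CPM moved 19, no filter 17, a limit of 5 CPM 15, symbols with 1 line 14, the largest line of a symbol 6 and a pseudocount of 0.5 CPM 4. The pseudocount of 5 CPM also moved 131 of the 232 named genes by more than their counting error at 95% and the largest line 36. The cause of changes with scaling was not tested. Depth of 52189025 to 78273121 counts limited ratios little above 1 CPM, and the lack of replicates limits all of them.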

Other observations

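Sex-linked transcripts were measured in all 6 cultures. Xist, the RNA that silences an X chromosome in females, had 259 and 349 CPM in hippocampal and cortical amyloid beta control glia, 582 and 425 CPM in N+F glia and 944 and 1142 CPM in untreated glia. Of the Y-linked genes Ddx3y had 32.2 and 25.2 CPM in the control pair and 46.2 and 52.8 CPM in the N+F pair, Eif2s3y had 28.5 and 30.3 CPM and 33.9 and 32.8 CPM, Uty had 11.1 and 8.53 CPM and 18.4 and 10.1 CPM, and Kdm5d had 13.97 and 12.9 CPM and 17.6 and 12.4 CPM. All 4 were at 0 counts in both untreated libraries. The control pair thus held Xist and Y-linked transcripts, with a slightly higher log2 ratio for the Y-linked genes Ddx3y (0.34), Uty (0.35) and Kdm5d (0.10) and a lower one for Xist (-0.43) and Eif2s3y (-0.08), all short of 2-fold.

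Npvf had 17.7 and 66.5 CPM in hippocampal and cortical control glia and 123 and 13.9 CPM in N+F glia, and 0 counts in both untreated libraries. It was chosen after its values were seen.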
